A study of Mus musculus with 12 samples.

Results

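Esrp1, Esrp2, Grhl2, Ovol1, Elf3 and Ehf, 6 regulators of epithelial transcription and splicing, were followed in the tumour cells of 6 mouse mammary tumours. The genes were a list, 6 of the 19369 genes in the tables, chosen with earlier results of these data known. The cells were those that the authors had annotated as tumour, 19515 of 59334 cells in the whole-tumour libraries after doublets were left out. The tumours grew from 5 single-cell-derived clones of the 4T1 line (M, EM3, EM2, EM1 and E) and from parental 4T1, a BALB/c mammary carcinoma line used as a model of triple-negative breast cancer. Cells were implanted in the mammary fat pad of female BALB/c mice, with an age of 9 to 11 weeks in the labels, and no further treatment or genetic change is given for any group. The clones are said to represent epithelial, intermediate and mesenchymal states, but no label gives the state of a named clone. Each group was 1 tumour, with a Total library and a library enriched for CD45, the pan-leukocyte surface antigen. The host mouse keeps its own mammary epithelium around the graft. With 1 tumour per group there was no spread between tumours to test against, so no p-value is given, and every 95% interval covers counting error only.

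ESRP1 and ESRP2 are RNA-binding proteins that direct the epithelial splice forms of transcripts such as Fgfr2, Cd44 and Ctnnd1. GRHL2 is a Grainyhead factor that maintains junction genes such as Cdh1 and Cldn4 and opposes ZEB1, and OVOL1 is a zinc finger repressor that acts against ZEB1 and other inducers of the mesenchymal state. ELF3 and EHF are epithelium-specific members of the ETS family, and both are expressed in the normal mammary gland. In the mouse genome build GRCm38.p6, RefSeq places Esrp1 at chr4:11331933-11386783, Esrp2 at chr8:106130319-106137193, Grhl2 at chr15:37232821-37363569, Ovol1 at chr19:5549137-5560575, Elf3 at chr1:135253574-135258472 and Ehf at chr2:103263431-103303275. The counts are per gene, so they carry no information on splice forms.

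Levels are given as CPM, the UMIs (unique molecular identifiers, 1 per captured molecule) of a gene per 1000000 UMIs of the same cells. CPM is not scaled by transcript length or probe number, so levels are compared between tumours and not between genes. The tumour cells numbered 5909 in the parental tumour, 4680 in M, 3316 in EM2, 2868 in EM1, 1961 in EM3 and 781 in E, with 5226176 UMIs in E and 27038555 to 85291712 in the others. E stood apart in quality: its tumour cells had a median of 6417 UMIs against 9665 to 15260, and a median mitochondrial share of 1.79% against 0.252% to 0.549%. Summed leukocyte markers were 1528 CPM in the tumour cells of E and 221 to 632 CPM in the others, with none of the 14 at 0. Summed markers of skin keratinocytes, 6 in all, were 34.4 CPM in E, of which Krt15 gave 18.8 CPM, and 6.29 to 15.1 CPM in the others, where 3 were at 0 in EM1 and 1 in EM3. The part of depth, mitochondrial share, leukocyte RNA and keratinocyte RNA in the contrasts with E was not tested. The 6 markers of the epithelial line summed to 6861 CPM in E and 2024 to 4159 CPM in the others, none of them at 0. No label names the droplet runs, but E and EM3 libraries, and EM1 and EM2 libraries, shared 12.2% to 19.1% of the smaller library's droplet barcodes, as did the 2 libraries of each tumour, against 0.686% to 1.91% for other pairs. Full cell barcodes were shared by up to 189 cells between 2 libraries (Total libraries of EM2 and M), but by 0 cells in the pairs with the higher droplet overlap. E against EM3 and EM1 against EM2 were taken from the droplet overlap as comparisons within a run. For E against EM1, EM2, M or the parental tumour, run and clone cannot be told apart. The same holds for M against EM1, EM2, EM3 or the parental tumour.

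Among the members with a UMI in every tumour, Esrp1 gave the widest range. Its level was 239 CPM in E, 33.3 in the parental tumour, 17.7 in EM1, 1.31 in EM2, 0.368 in M and 0.241 in EM3. These levels rested on 1248, 2837, 479, 66, 24 and 7 UMIs. E was 7.18-fold above the parental tumour (6.71 to 7.68), 13.5-fold above EM1 (12.1 to 15.0) and 183-fold above EM2 (143 to 238). Of neighbours in the order, M and EM3 did not differ beyond counting error, and the other 4 steps did. In EM3 the level did not exceed the 0.297 CPM found in the leukocytes of the same library, and was read as background. In M it stood beside 0.164 CPM, and 15 of the 24 UMIs lay in 117 cells with rare markers of host mammary epithelium, described further on. In EM2, 48 of the 66 UMIs lay in 106 such cells, and without those cells the level was 0.369 CPM. Most of the 48, 41 UMIs, lay in the 16 cells of EM2 with at least 2 of the markers.

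Within the pair inferred to share a run, EM1 carried 13.5 times as much Esrp1 as EM2 (10.5 to 17.8). Without the cells with rare mammary markers, described further on, it was 47.8 times as much (29.9 to 81.4), with EM2 then near background. The other members differed less between these clones: Esrp2 was 1.96-fold and Ovol1 1.36-fold higher in EM1, while Grhl2 was 8.32 CPM in EM1 and 10.2 CPM in EM2, and Elf3 20.6 and 24.2 CPM. Ehf was lower in EM1, at 0.259 CPM from 7 UMIs against 1.03 CPM in EM2 (0.251-fold, 0.0963 to 0.555), and without the cells with rare mammary markers this was not beyond counting error (0.262-fold, 0.0289 to 1.14). On the log2((CPM + 10) ratio) scale used for all genes, in which the added 10 CPM damps changes of low genes, Esrp1 was the 1 member at or below -1 in EM2 over EM1. Over all 10016 genes with a mean of at least 5 CPM in the 6 tumours, 1.43% were.

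Esrp2, the paralogue of Esrp1, ran over a narrower range. Its level was 29.7 CPM in E, 4.48 in EM1, 3.80 in the parental tumour, 2.44 in M, 2.28 in EM2 and 1.31 in EM3. E was 6.63-fold above EM1 (5.19 to 8.48) and 22.7-fold above EM3 (15.8 to 33.3). EM1 and the parental tumour, and M and EM2, did not differ beyond counting error. Where Esrp1 was near background, Esrp2 was still above the leukocytes of the same library, with 2.44 against 0.411 CPM in M and 1.31 against 0.114 CPM in EM3.

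**Figure D1:**
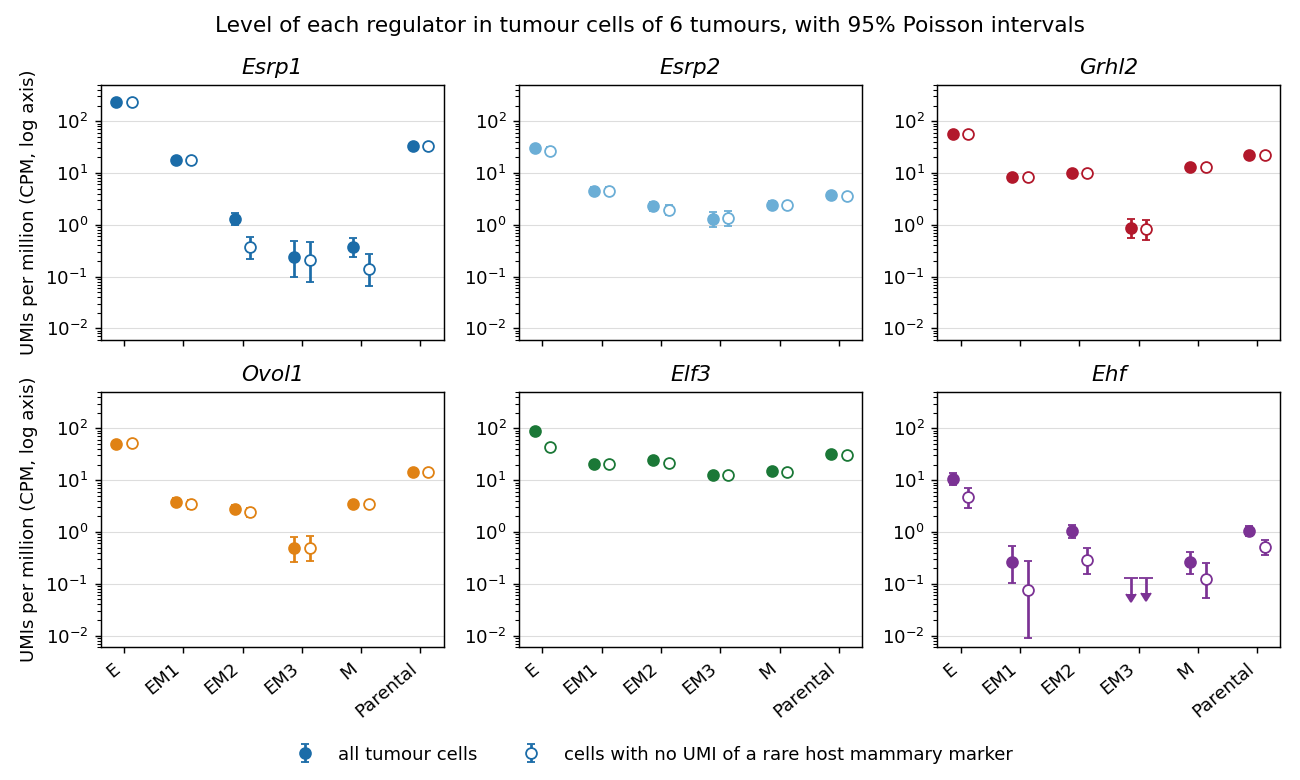
Level of each regulator in the tumour cells of 6 tumours, in CPM on a log axis, with 95% Poisson intervals. Filled points hold all tumour cells, open points the cells with no UMI of a rare host mammary marker, and arrows mark upper limits where no UMI was counted. E is highest in each panel, Esrp1 spans 239 to 0.241 CPM, and Elf3 in E is 88.0 CPM with and 44.1 CPM without the cells that have mammary markers.

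Grhl2 did not follow the order of Esrp1. Its level was 57.0 CPM in E, 22.6 in the parental tumour, 12.8 in M, 10.2 in EM2, 8.32 in EM1 and 0.860 in EM3, and all neighbours in this order differed beyond counting error. M, which had almost no Esrp1, thus carried more Grhl2 than EM1, by 1.54-fold (1.33 to 1.79). EM3 stood apart, with 25 UMIs in 1961 cells, and M was 14.9-fold above it (10.0 to 23.1). The Grhl2 signal of M was spread over many cells: 709 of 4680 cells (15.1%) had a UMI, against 43 of 8049 leukocytes (0.534%), at a median depth of 13204 and 1878 UMIs.

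Ovol1 was 49.9 CPM in E, 14.7 in the parental tumour, 3.81 in EM1, 3.50 in M, 2.79 in EM2 and 0.482 in EM3. E exceeded the parental tumour 3.40-fold (2.97 to 3.89) and EM3 104-fold (60.7 to 192). EM1 and M did not differ beyond counting error, and M was 7.26-fold above EM3 (4.24 to 13.5). For Grhl2 and Ovol1 alike, EM3 was the lowest tumour by a wide margin, and it shared its inferred run with E, the highest.

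Elf3 had the narrowest range. Its level was 88.0 CPM in E, 31.8 in the parental tumour, 24.2 in EM2, 20.6 in EM1, 14.8 in M and 12.6 in EM3. Every neighbour in this order differed beyond counting error, but the distance from E to EM3 was 6.99-fold (6.08 to 8.04). Without the cells with rare mammary markers that distance was 3.51-fold (2.94 to 4.17), and EM1 and EM2 no longer differed beyond counting error (0.925-fold, 0.832 to 1.03). These intervals treat each UMI as independent, while Elf3 UMIs were clustered in cells. Their variance over cells at 3000 UMIs was 6.46 times the mean in E and 1.37 times in EM2, described further on. The intervals leave this out, so the smaller steps in the order are not shown to exceed it. EM3 had an Elf3 UMI in 260 of 1961 cells (13.3%), against 0.567% of its leukocytes, at a median depth of 15260 and 4784 UMIs. The Elf3 promoter, taken from RefSeq, is shown as the 1 member promoter in the table used here. The window runs from 250 bases before to 50 bases after the start site, chr1:135258423-135258722, minus strand, build GRCm38.p6, printed 5′ to 3′ on the gene's strand with 1 motif match in capitals.
Elf3 promoter: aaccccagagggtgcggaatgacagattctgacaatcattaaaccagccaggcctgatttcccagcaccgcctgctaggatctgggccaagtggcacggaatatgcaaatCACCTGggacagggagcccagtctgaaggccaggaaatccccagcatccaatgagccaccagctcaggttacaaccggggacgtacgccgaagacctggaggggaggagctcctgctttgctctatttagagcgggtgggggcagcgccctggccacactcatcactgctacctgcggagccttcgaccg
The capitals mark CAGGTG read on the opposite strand, an E-box of the kind bound by ZEB and SNAI factors, beginning at position -140 relative to the start. This motif occurs on either strand in 20.3% of 32544 promoters of 300 bases. The Grainyhead motif AACCGGTT (0.147% of promoters), its wider form AACNNGTT (4.19%), which includes it, and the ETS motif CCGGAAG (8.91%) had no match in this window on either strand. A match of letters is a description and not a bound site.

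Ehf was rare in every tumour. It gave 55 UMIs in 22 of 781 cells of E (10.5 CPM, 7.93 to 13.7), 90 UMIs in 56 cells of the parental tumour (1.06 CPM), 52 in 30 cells of EM2 (1.03 CPM), 17 in 12 cells of M (0.261 CPM) and 7 in 3 cells of EM1 (0.259 CPM). EM3 had no UMI in 1961 cells, which allows a share of cells with a UMI of up to 0.153% (3 cells, and the exact upper bound is 0.188%). The exact interval puts E at least 80.2-fold above EM3, and at least 32.6-fold without the cells with rare mammary markers, described further on. In M the level was near the 0.383 CPM of the leukocytes in the same library, and the upper limit of 0.127 CPM in EM3 lay below the 0.320 CPM of its leukocytes. Leukocytes are not free of Ehf, as dendritic cells of the CD45 libraries had 4.14 CPM. Of the 17 UMIs in M, 9 lay in the 117 cells with rare mammary markers. The parental tumour and EM2 did not differ beyond counting error.

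The few cells with Ehf differed from the rest of their tumour in Elf3. In E, the 22 cells with an Ehf UMI carried Elf3 at 1257 CPM (1085 to 1449) against 53.2 CPM (47.0 to 59.9) in the other 759 cells, and held 190 of the 460 Elf3 UMIs of the tumour. Esrp1 in the same split was 258 and 238 CPM, and Grhl2 59.6 and 56.9 CPM, with overlapping intervals, while Esrp2 was 79.4 CPM (41.0 to 139) and 28.2 CPM (23.7 to 33.2). In EM2 the 30 cells with Ehf had 76.1 CPM of Esrp1 (52.7 to 106) against 0.640 CPM elsewhere, and 287 CPM of Elf3 against 21.9. In M the 12 such cells had 54.0 CPM of Esrp1 (25.9 to 99.3) against 0.215 CPM, while Grhl2 was 5.40 CPM (0.137 to 30.1) against 12.8. Elf3 in these cells of M was 108 CPM (65.9 to 167) against 14.6 CPM. In the parental tumour the 56 cells with Ehf had 71.1 CPM of Elf3 (56.4 to 88.5) against 31.3 CPM. Their Esrp1 overlapped with that of the other cells, at 39.1 CPM (28.4 to 52.5) against 33.2 CPM. Pooled, the cells with Ehf were thus high in Elf3 in all these tumours, least so in the parental one, and in EM2 and M also high in Esrp1. Only a part of them carried these UMIs. Elf3 was found in 16 of the 22 cells in E, 19 of 30 in EM2 and 6 of 12 in M. In the parental tumour it was in 23 of 56, or 41.1% against 24.9% of the other cells. Esrp1 was found in 12 of the 30 cells in EM2 and 4 of the 12 in M.

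**Figure D2:**
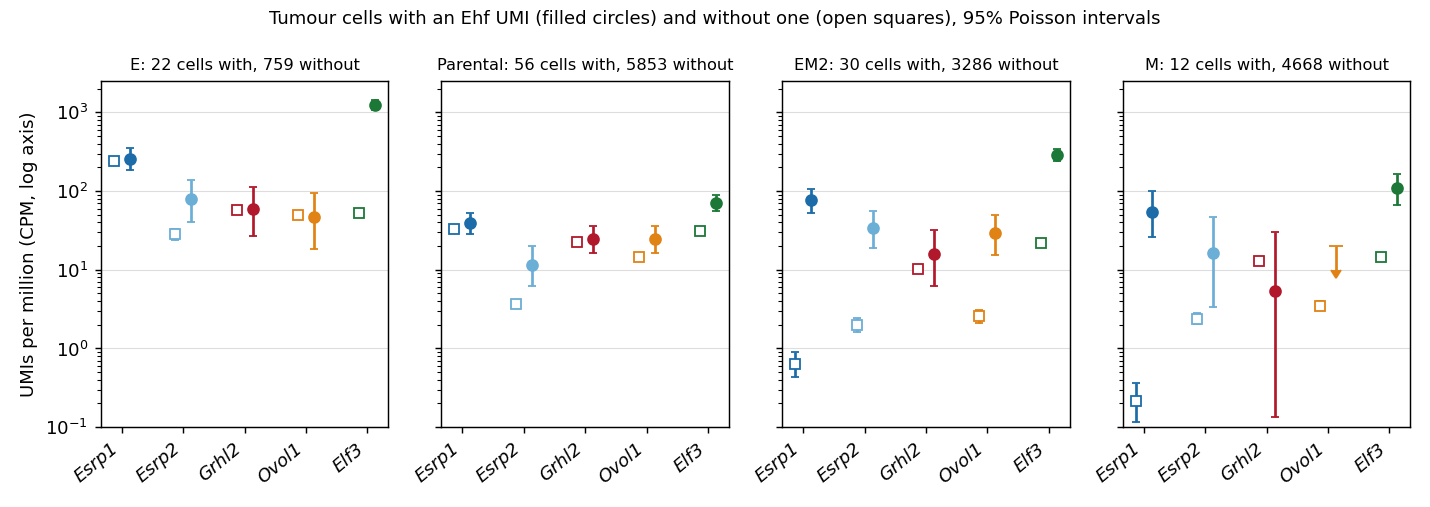
Levels of the other 5 regulators in tumour cells with an Ehf UMI (filled circles) and without one (open squares), in CPM on a log axis, with 95% Poisson intervals and an arrow for an upper limit. Elf3 is 1257 against 53.2 CPM in E, and Esrp1 is 76.1 against 0.640 CPM in EM2, while Esrp1 and Grhl2 in E overlap between both sets of cells.

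Markers of host mammary epithelium moved with Ehf. Of the 13 markers listed for that tissue, 10 were found in under 5% of the tumour cells of every tumour: Csn2, Csn1s1, Wap, Elf5, Prlr, Pgr, Kit, Acta2, Myh11 and Oxtr. The other 3, Areg, Esr1 and Csn3, were more widely present in at least 1 tumour. A UMI of these 10 rare markers was present in 14 of the 22 cells with Ehf in E (63.6%) and in 53 of the other 759 (6.98%). In EM2 it was 17 of 30 (56.7%) against 89 of 3286 (2.71%), in M 5 of 12 (41.7%) against 2.40%, and in the parental tumour 18 of 56 (32.1%) against 4.63%. Summed over tumour cells, all 13 markers came to 762 CPM in E and 538 to 1514 CPM in the other tumours, of which Areg, an EGF-family ligand, gave 679 CPM in E and 506 to 1484 CPM elsewhere. Csn1s1 and Wap were at 0 in E. In E, the 10 genes with the highest ratio between cells with and without Ehf, a rule chosen after the values were seen, were Ptn, Krt19, Gpx3, Muc4, Wfdc18, Ltf, Hspb1, F3, Ceacam1 and Ly6d. Krt19, a keratin of luminal epithelium, was 7796 against 258 CPM, and Ltf, which encodes the milk protein lactoferrin, 1079 against 26.4 CPM, with UMIs in 3 of the 22 cells. These 22 cells had a median mitochondrial share of 0.684%, against 1.83% in the other cells of E. Which of these cells were grafted and which were of the host was not tested. A single UMI of a rare marker was enough to mark a cell. At least 2 of these markers were found in 22 of 67 marked cells in E and 16 of 106 in EM2. It was 8 of 117 in M, 35 of 289 in the parental tumour, 4 of 41 in EM1 and 1 of 55 in EM3. Kit, Acta2 and Myh11 were the most frequent rare markers in EM1 and EM3. In EM3 the 55 cells had no UMI of Ehf, Cldn4 or Wfdc18, and 5 had Krt19. Whether cells with a lone marker were of mammary origin was not tested.

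Leaving out the cells with a UMI of a rare mammary marker changed some members and not others. It removed 67 of 781 cells in E (8.58%) and between 1.43% and 4.89% of the cells elsewhere. Elf3 in E was 88.0 CPM with these cells and 44.1 CPM without them (38.3 to 50.4), and E then exceeded the parental tumour 1.42-fold (1.23 to 1.64) in place of 2.76-fold, and EM1 2.18-fold in place of 4.27-fold. Ehf in E was 4.64 CPM without them, from 22 UMIs in 8 cells. Esrp1 without them was 0.369 CPM in EM2 and 0.142 CPM in M, close to the leukocytes of both libraries. By count, E stood 642-fold (404 to 1087) and 1671-fold (877 to 3663) above these levels. As both levels are near background, these folds do not measure the expression of the cells themselves. Esrp1 in E was 236 CPM and in EM1 17.6 CPM, Grhl2 in E was 56.9 CPM and in M 12.9 CPM, and Ovol1 in E was 51.0 CPM, all within the counting error of the full set. The contrasts of Esrp1 between E, the parental tumour and EM1, and those of Grhl2 and Ovol1, were thus about as large without these cells, and the Elf3 contrast was less.

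Set against all genes, the members were among those lower than in E in every tumour. A log2 ratio of -1 or less was reached by 5 of the 6 members in the parental tumour, where 6.42% of the 10016 genes reached it, by 6 in M (7.28% of genes), 6 in EM3 (6.39%), 5 in EM2 (6.46%) and 6 in EM1 (5.3%). Ehf, with a mean of 2.19 CPM, did not pass the filter of 5 CPM, and its ratio lay at the threshold, between -0.89 in the parental tumour and -1.04 in EM3. The other 5 members reached the threshold in all 5 tumours. Esrp2 passed the filter only through its level in E, with a mean of 2.86 CPM over the other 5 tumours, so that it had to differ and its ratio is a description. Esrp1, Grhl2, Ovol1 and Elf3 had means of 10.6, 11.0, 5.05 and 20.8 CPM over those 5 tumours. The median ratio of the 6 members was -1.25 in the parental tumour, -1.83 in M, -2.32 in EM3, -1.71 in EM2 and -1.78 in EM1, also with Ehf in EM3 set to 3 UMIs. The median of all filtered genes lay between -0.03 and 0.04. All 5 comparisons share the cells of E. The members were chosen with earlier results of these data known, so these counts are a description.

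By the same measure, Esrp1, Grhl2, Ovol1 and Elf3 in E reached a log2 ratio of 1 over the highest of the other tumours, as did 2.57% of genes, and so did Esrp2, which again entered through its level in E. The highest other tumour was the parental one for Esrp1, Grhl2, Ovol1, Elf3 and Ehf, and EM1 for Esrp2. Without the cells with a rare mammary marker, Elf3 came to -0.84 in EM1, -0.76 in EM2 and -0.40 in the parental tumour and was no longer past the threshold there, and Ehf was past it in no tumour. That left 5 members in M (7.08% of genes with these cells left out) and EM3 (5.95%), and 4 in EM1 (5.07%), EM2 (6.27%) and the parental tumour (6.23%). Among these, Ovol1 as well as Esrp2 then passed the filter only through its level in E, so that both had to differ and their ratios are descriptions. Grhl2 in the parental tumour passed narrowly, at -1.04, and was not past the threshold with median-of-ratios factors (-0.84), means over single cells (-0.99) or cells free of leukocyte markers (-0.73).

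**Figure D3:**
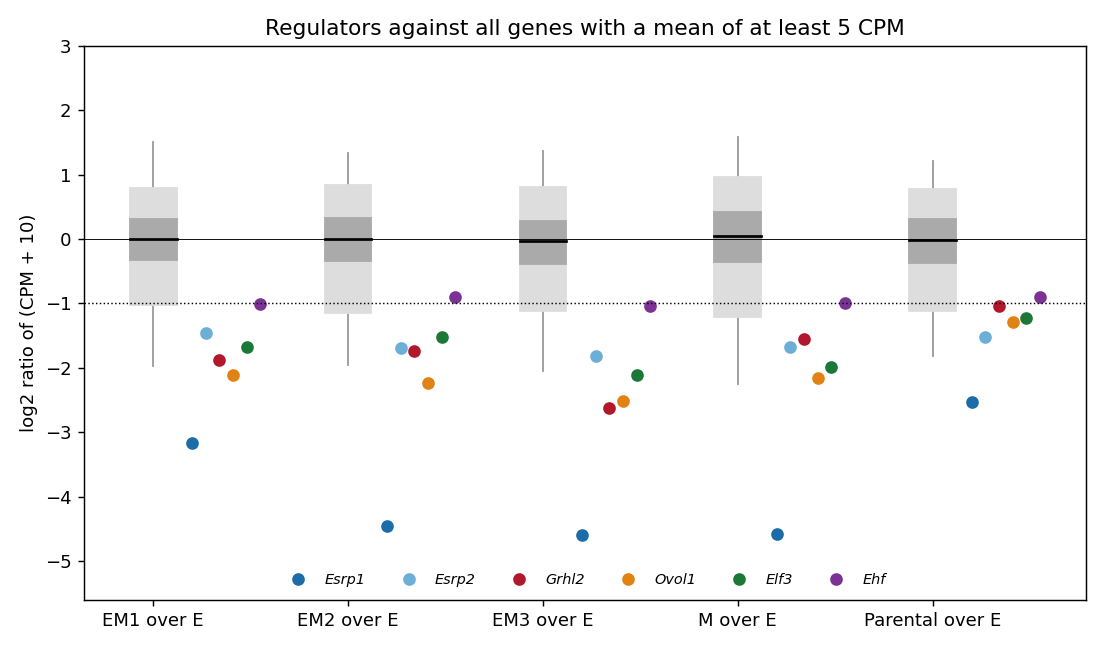
Log2 ratio of (CPM + 10) of each tumour over E. Coloured points are the 6 regulators, and grey bars show all 10016 genes with a mean of at least 5 CPM (dark, the middle 50%; light, 5th to 95th percentile; line, 1st to 99th percentile; black bar, median). Esrp1 is the lowest member in each comparison, from -2.52 to -4.60, and Ehf lies near the dotted line at -1.

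In single cells each member was detected most often in E at equal depth, by a margin that was wide for Esrp1 and narrow for Elf3. To compare shares, each tumour cell was thinned at random to 3000 UMIs, which left out 369 shallower cells in the parental tumour, 100 in M, 107 in EM2, 230 in EM1, 73 in EM3 and 123 in E. Esrp1 was then found in 329 of 658 cells of E (46.1% to 53.9%), 8.74% in the parental tumour, 5.31% in EM1, 0.561% in EM2, 0.175% in M and 0.0530% in EM3. Elf3 was found in 12.5% of thinned cells of E (10.0% to 15.2%) and 7.74% in the parental tumour (7.05% to 8.48%), Grhl2 in 105 of 658 cells of E and 6.70%, and Ovol1 in 10.3% of E and 4.35%. In cells without a rare mammary marker, not thinned, Elf3 was in 17.8% of cells of E, 21.5% of EM2 and 24.8% of the parental tumour, at median depths of 6328, 14738 and 12999 UMIs. Before thinning the Esrp1 share in E was 68.8%, and 2.55% of the 9855 leukocytes in the same library had an Esrp1 UMI, at a median depth of 2120 UMIs. At least 1 of the 6 members was found in 68.7% of thinned cells of E, 25.4% in the parental tumour, 14.2% in EM1, 10.8% in EM2, 9.04% in M and 4.87% in EM3.

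**Figure D4:**
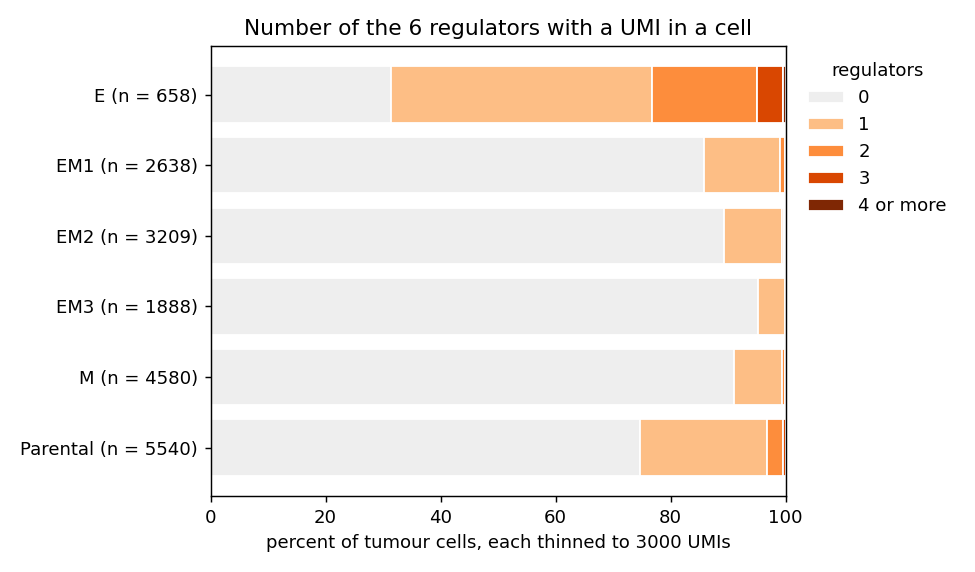
Number of the 6 regulators with at least 1 UMI in a tumour cell, as percent of the cells of each tumour after thinning to 3000 UMIs. E has at least 1 regulator in 68.7% of cells and at least 2 in 23.3%, the parental tumour 25.4% and 3.32%, and EM3 4.87% and 0.0530%.

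The members differed in the ratio of variance to mean of their UMIs over the cells of E. For Grhl2 the variance of the UMIs per thinned cell was 1.00 times the mean, for Esrp2 1.05 and for Esrp1 1.16, where sampling alone gives about 1.00. At 6000 UMIs, over 428 cells, these were 1.07, 1.15 and 1.33. It was 1.55 for Ovol1, 2.15 for Ehf and 6.46 for Elf3, which reached 17 UMIs in 1 cell. The 67 cells of E with rare mammary markers held 54.6% of its Elf3 UMIs and 60.0% of its Ehf UMIs. The 22 of them with at least 2 of the markers alone held 40.9% and 50.9%. The part of these cells in the ratios of variance to mean was not tested. Among the other tumours the Elf3 value was 1.12 to 1.37. Of the 6 members Grhl2 thus had the lowest and Elf3 the highest ratio in E at both depths. This ratio also depends on a gene's level, so it does not rank the members by evenness.

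Esrp1 was found together with Esrp2, Grhl2 and Ovol1 in E about as often as the product of their shares gives, and Elf3 with Ehf more often. Esrp1 and Grhl2 were both found in 54 cells, where the product gives 52.5, and Esrp1 and Ovol1 in 34, where it gives 34.0. Esrp1 and Elf3 were both found in 34 cells, where the product gives 41. Ovol1 and Elf3 were both found in 16 cells, where the product gives 8.47. Elf3 and Ehf were both found in 9 cells, where the product gives 1.37, that is, in 9 of the 11 thinned cells with Ehf. The parental tumour differed from E. There Esrp1 was found with Esrp2 in 16 cells, where the product gives 6.29, and with Ovol1 in 36, where it gives 21.1. Esrp1 with Grhl2 was found in 41 cells against 32.4, and Esrp1 with Elf3 in 38 against 37.5. At least 3 members were found in 33 of 658 cells of E, where the 6 shares give 25.4. In the parental tumour it was 23 of 5540 cells, where the shares give 8.68, and in EM2 in 10 of 3209 cells, where they give 0.23. The part of the cells with mammary markers in these counts was not tested.

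The other cells of the tumours gave a background. In the CD45 libraries, 53537 leukocytes had 15 Esrp1 UMIs, 29 of Esrp2, 26 of Grhl2, 11 of Ovol1 and 40 of Elf3, or 0.0499 to 0.181 CPM. In the Total libraries the leukocytes of E had 7.73 CPM of Esrp1 (6.81 to 8.73), and those of the parental tumour 3.17, against 0.330 or less in EM2, EM3 and M. The libraries with the most Esrp1 in tumour cells thus also had the most in leukocytes. In E it was 18.2 CPM in granulocytes and 5.38 CPM in macrophages, against 239 CPM in tumour cells. Ehf differed from the other members in dendritic cells of the CD45 libraries. Its level there was 4.14 CPM (32 UMIs in 16 of 1379 cells, 2.83 to 5.85). In macrophages of these libraries it was 0.218 CPM (0.152 to 0.304), near the 0.193 CPM of Elf3 (0.131 to 0.275). Dendritic cells of the Total libraries had 1.19 CPM of Ehf, from 4 UMIs in 3 cells.

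Among relatives of the members, the closest paralogues were also highest in E. Ovol2 was 16.5 CPM in E, 4.24 in the parental tumour and 0.344 to 1.13 in the 4 other clones. Of 5 Grainyhead relatives, 2 were at or below -1 in EM3, where 6.39% of all genes were, and 1 in M (7.28%), and Ubp1 and Tfcp2 were the 2 that passed the filter. Ubp1, a broadly expressed relative, was 290 CPM in E and 96.7 to 126 CPM in the others, and Tfcp2l1 was 15.7 CPM in E and 1.31 to 3.97 CPM in the others. Grhl1 was 5.17 CPM in E and 0.310 to 1.70 CPM elsewhere, at a ratio of -0.56 in EM3. Of 14 other ETS factors, 2 were at or below -1 in EM3 and 2 in M, with 1 at or above 1 in M, where 4.62% of all genes were. Those lower in both were Ets2, with 542 CPM in E, 132 in EM3 and 155 in M, and Spdef, a luminal ETS factor, with 19.7, 2.31 and 2.67 CPM. Ovol2 and Tfcp2l1 did not pass the filter, and Spdef passed it only through E, so that their ratios are descriptions. Etv5 was higher in M, with 111 CPM against 40.2 in E.

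Of 15 other epithelial transcription factors, 1 was at or below -1 in EM3 (6.39% of all genes) and 2 in M (7.28%), a share near that of all genes in EM3, among them Foxa1 in M (83.4 CPM in E and 19.6 in M), and Cebpb was higher in M (1219 and 2741 CPM). Klf4, Klf5, Gata3 and Sox9 passed neither threshold in EM3 or M. Of 10 EMT-inducing repressors, none was at or below -1 in these 2 tumours, 1 was at or above 1 in EM3, where 2.69% of genes were, and 2 in M. Twist1 was 182 CPM in E, 454 in EM3 and 396 in M, and Snai1 120 CPM in E, 181 in EM3 and 303 in M, while Zeb1 lay between 3.77 and 7.65 CPM in all 6 tumours. Zeb2 was 130 CPM in E, 260 in EM3 (0.95) and 214 in M (0.67), and in EM3 it was past the threshold without the cells with rare mammary markers (1.03).

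Of 14 other splicing regulators measured, none passed a log2 ratio of 1 or -1 in any of the 5 tumours over E with all tumour cells, where 5.3% to 7.28% of all genes were at or below -1, which for 14 genes is too few to set 0 apart. Without the cells with rare mammary markers Rbms3 did so in M, at 0.422 CPM in E and 12.0 CPM in M (1.08). They included Rbfox2, with 137 CPM in E, 138 in EM3 and 88.8 in M, and Rbm47, with 140, 133 and 150 CPM. Of 8 transcripts known to be spliced under ESRP control, none passed in EM3 or M. There 6.39% and 7.28% of all genes were at or below -1, and 2.69% and 4.62% at or above 1. For 8 genes these shares are too small to set 0 apart. In EM1 Slk was lower (146 CPM, 329 in E), as were 5.3% of all genes. Enah was higher in EM1 (151 CPM, 42.9 in E), where the share of all genes was not counted. Enah in M, at 92.3 CPM and 0.95, was just past the threshold without the cells with rare mammary markers. Cd44 was 1240 CPM in E, 1230 in EM3 and 786 in M, and Ctnnd1 212, 252 and 243 CPM. Their splice forms were not measured.

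Of 18 epithelial junction and surface genes known downstream of GRHL2, 14 were at or below -1 in EM3 (6.39% of all genes) and 15 in M (7.28%), with medians of -2.78 and -2.60, and none was above 1. Some of them, Rab25 and Ap1m2 included, passed the filter only through E. The list was chosen with earlier results of these data known, so its counts are a description. Cldn4, a tight junction claudin, was 4643 CPM in E, 585 in EM1, 294 in the parental tumour, 104 in M, 89.4 in EM2 and 12.8 in EM3. Cdh1, which encodes E-cadherin, was 741 CPM in E, 52.0 in the parental tumour, 25.9 in EM1, 24.1 in EM2, 4.02 in M and 3.17 in EM3. Epcam, an epithelial adhesion molecule, was 1586 CPM in E, 49.3 in M and 4.75 in EM3. Cldn3 was 387 CPM in E, 81.8 in EM1 and 6.95 in EM2, an order that places EM1 far above EM2 as for Esrp1. Spint1 and Spint2, which encode inhibitors of membrane serine proteases, and Cdh3 passed neither threshold in EM3 or M. Without the cells with rare mammary markers the counts were 14 and 14, where 5.95% and 7.08% of all genes were past the threshold, and Cldn4 in EM2 was 28.3 CPM.

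**Figure D5:**
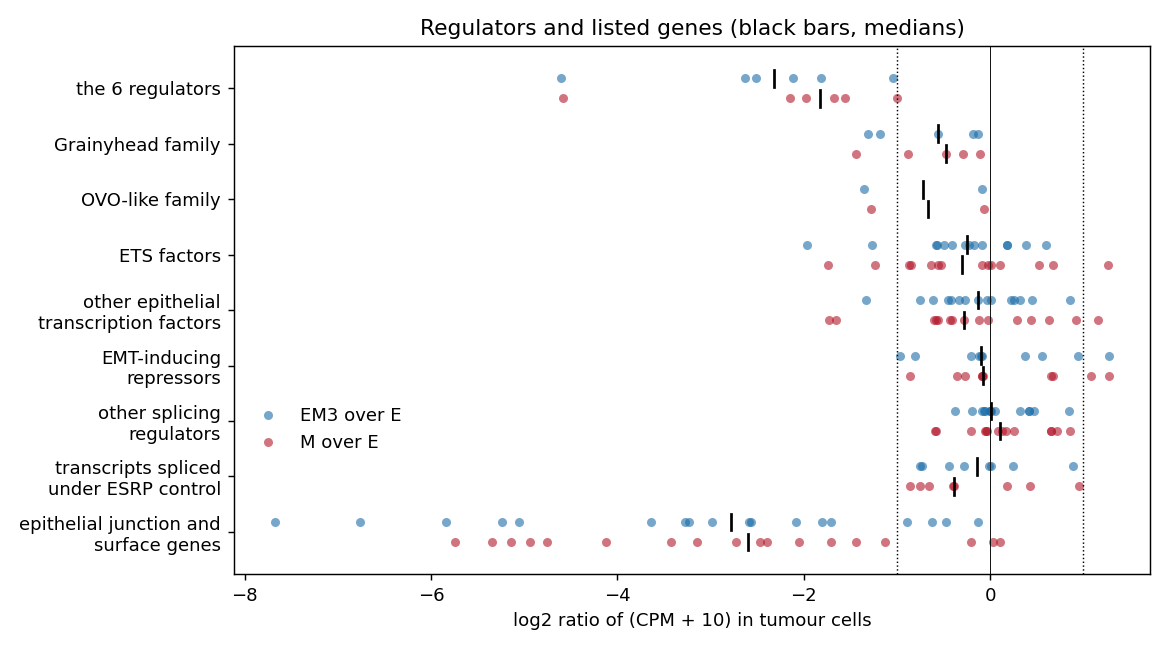
Log2 ratio of (CPM + 10) over E in tumour cells of EM3 (blue) and M (red) for the 6 regulators and each gene of 8 lists, with black bars at medians and dotted lines at -1 and 1. The 6 regulators and the junction and surface genes lie to the left, with medians of -2.32 and -2.78 in EM3, and the other splicing regulators lie between the dotted lines.

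The genes with the most similar pattern over the 6 tumours were found by Pearson's r of log2(CPM + 10), among 10016 genes. They were Ptprf, Mafg and Chmp4c for Esrp1, Krt88, Atf3 and Itpk1 for Esrp2, Stx3, Krt80 and Gcc1 for Grhl2, Nppb, Atg9b and Hsd3b7 for Ovol1, Cdh1, Cdkn2aip and Eppk1 for Elf3, and Mal2 and Bspry for Ehf. Their r lay between 0.988 and 0.999 and Spearman's rho between 0.771 and 1.00. Without the 2 tumours farthest from the median, r over the remaining 4 was 0.619 for Atg9b, 0.839 for Hsd3b7 and at least 0.911 for the others. As the highest of many genes over 6 tumours that share E as the top value, they are a description, given without a p-value. Among the members themselves, r over 6 tumours was 0.867 to 0.980, and over the 5 tumours without E it was 0.312 for Esrp2 and Ehf and 0.429 to 0.906 for the other pairs.

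Across single cells of the parental tumour, the 10 genes that went most with the number of members detected included Cldn4, Epcam, Cdh1, Krt14, Cldn3, Krt19, Jup, Krt8 and Krt7, with r of 0.128 to 0.223 over 5540 thinned cells. Cdh1 was found in 31.0% of the 184 cells with at least 2 members and in 8.66% of the 4133 cells with none. Epcam was found in 65.2% and 33.1%, and Cldn4 in 62.0% and 24.5%. In E the 10 genes were Hspb1, Krt19, Casz1, Igfbp5, Ephb3, Krt8, Hspa1a, Fgfr1, Ly6d and Ptn, with r of 0.223 to 0.289 over 658 cells. Of these, Hspb1, Krt19, Ly6d and Ptn were also among the genes that set apart the cells with Ehf. In EM2 the highest r was 0.396 for Cldn4, 0.372 for Gpx3 and 0.365 for Krt19 over 3209 cells, genes that were also high in its cells with Ehf, and in EM1 and M the highest r was 0.167 for Cdh1 and 0.164 for Krt19. These r are low, and the cells of a tumour share 1 library.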

How the data were processed

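The authors deposited a table of raw UMI counts per gene and cell for each library, and a cell table with total UMI and gene counts, the mitochondrial percent and the annotation, per the file headers. Recomputed count and mitochondrial percent values were equal to those the authors deposited. Per the labels' protocols, cells were fixed with a fixed-RNA kit and libraries made with 3′ reagents, and the submitters' processing notes name Cell Ranger and mm10. Versions, annotation and the authors' cell filters are not given in the sources used here.

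From these counts, doublets were called with a Scrublet-type procedure in python 3.11.15 (numpy 2.4.6, scipy 1.17.1): 2 simulated pairs per cell, 2000 variable genes, 30 components and 1 score limit for all libraries. It called 2416 of 115612 cells (2.09%), which were left out. The authors' tumour annotation was used as given. UMIs were summed over the tumour cells of a library and scaled to CPM. Ratios are log2((CPM + 10) ratio), with a gene counted as lower than in E at -1 or less, beside all genes with a mean of at least 5 CPM. Counts have exact Poisson intervals, shares exact Clopper-Pearson intervals, and ratios of rates exact conditional intervals, at 95%. The intervals of counts and of ratios of rates treat each UMI as independent, so clustering of UMIs in cells is not in them. Calculations were checked on simulated data.

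The members and lists were chosen with earlier results of these data known. Text names all members, list genes past the threshold in EM3 or M over E, the 3 genes of most similar pattern per member, and the 10 genes that went most with the number of members per cell. Some genes that this rule names are not reported here. Promoters and gene positions are from RefSeq (GRCm38.p6). The split by rare mammary markers was added after the data were seen.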

Additional observations from a re-analysis of the deposited data

How the results depend on the processing

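The number of the 6 members at or below the threshold in each tumour over E stayed within 1.5 times under 9 of 11 alternatives: doublets kept, a Ptprc or leukocyte marker limit, 650 genes per cell, both scalings, means over single cells, a pseudocount of 1 CPM, and the limit on rare mammary markers. This is a wide limit, in which a fall from 6 to 4 counts as within, as in EM1 with the limit on rare mammary markers. With a pseudocount of 50 CPM the counts were 1 in the parental tumour, EM1 and EM2, 2 in M and 3 in EM3, where 1.27% to 2.22% of all genes passed, since by construction a larger added value damps ratios of low genes. At a threshold of -2 they were 1 in the parental tumour, 2 in M, EM1 and EM2, and 4 in EM3, where 0.679% to 1.44% of all genes passed. Ehf was the member most often lost among the other alternatives. Grhl2 in the parental tumour was lost with median-of-ratios factors, with means over single cells and with cells free of leukocyte markers. Median-of-ratios factors moved the median of all genes by 0.16 to 0.25, and all members stayed lower than in E. The leukocyte marker limit left 12 cells in E, 34 in EM3 and 67 in M, and is thin. No log2 ratio of a member changed sign under any alternative. Of the 30 ratios, 16 left the counting interval of the main value with median-of-ratios factors and 24 with the leukocyte marker limit. All 30 stayed within it with doublets kept, 650 genes per cell or means over single cells. No paired analysis was possible because each group holds 1 tumour. Depth limits Esrp1 in EM3 and M and Ehf outside E, which rest on 7 to 90 UMIs or none.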
